A study of Mus musculus with 10 samples.

Results

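The heat-shock chaperones described here are 10 genes of the 31053 listed in each matrix: Hspa1a, Hspa1b, Hspb1, Hspb8, Dnajb1, Dnaja1, Hsph1, Hsp90aa1, Hspd1 and Hspe1. They were taken by gene symbol, each symbol matched 1 gene identifier, and all 10 passed the filter on low counts. The counts are droplet-based single-cell RNA profiles of EpCAM+ epithelial cells from adult mouse distal lung, sorted by lineage colour. In both mouse lines Sftpc-CreERT2, a tamoxifen-activated Cre driven by the promoter of a surfactant gene, labels alveolar type 2 (AT2) cells and their progeny. All mice received 3 doses of tamoxifen, lungs were pooled within a sample, and the tissue was digested for 45 min at 37 °C before sorting. In Sftpc-CreERT2;R26R-Confetti mice the RFP+ and YFP+ cells are both wildtype, with 1 library per colour and no time point in the labels, although the methods place them at 2 weeks. In the other line, called mosaic here, the RFP+ cells carry an oncogenic mutation and the YFP+ cells are their wildtype neighbours. These were collected at 4 days and at 2 weeks, with 2 libraries per colour and time point. The design therefore asks how mutant cells, and wildtype cells beside them, differ from cells of lungs without mutation.

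Heat-shock chaperones bind unfolded proteins, help them to fold or hold them until they can be refolded. Many of their genes are switched on within minutes by the transcription factor HSF1 when proteins are damaged, for example by heat, oxidants or the handling of tissue. HSP70 proteins work with J-domain partners, which bring them their clients, and with nucleotide exchange factors, which release the client. HSP90 acts later on kinases and receptors, small heat-shock proteins keep clients soluble, and HSP60 with HSP10 forms the folding chamber of mitochondria. In AT2 cells, which make and secrete large amounts of surfactant protein, folding capacity is part of normal function.

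The promoters are shown because a short motif to which heat-shock factors are known to bind was found for 8 of the 9 members with a window. HSF1 binds alternating repeats of the unit GAA, so that 2 units read GAANNTTC or TTCNNGAA, each the same on both strands and able to overlap the other. Promoter windows of RefSeq (GRCm38.p6, 250 bases before to 50 after a gene start) were matched for 9 of the 10 members, with 14 windows in all, and there was none for Hsp90aa1. A match of 2 units was present in 9 of the 14 windows, against 15.1% of all 32851 windows of 300 bases. Counted by gene, it was present for 8 of the 9 members, some of which have several overlapping windows. A run of 3 alternating units was present in 4 of the 14 windows, those of 3 members (Hsph1, Hspd1 and Hspe1), against 0.603% of all windows. A match describes letters in a window and does not show binding. The windows of Hspa1a and Hspa1b were the same at 296 of 300 positions. Below, the bases that precede the gene start are given 5′ to 3′ on the strand of the gene for Hspa1a (250 bases, chr17:34972157-34972406, minus strand), Hspb1 (250 bases, chr5:135887669-135887918, plus strand) and Dnajb1 (203 bases, chr8:83607972-83608174, plus strand). Capitals mark a match of 2 units, which Dnajb1 did not have. For the other pair, 30 bases around the run of 3 or more units are given, with the run in capitals. The Hspe1 site (chr1:55088053-55088082, plus strand) lies before the gene start of Hspe1 and, on the other strand, before 1 of the RefSeq starts of Hspd1. In the Hsph1 site (chr5:149636279-149636308, minus strand) the run in capitals starts 15 bases after the start of one of its 2 RefSeq entries.
Hspa1a: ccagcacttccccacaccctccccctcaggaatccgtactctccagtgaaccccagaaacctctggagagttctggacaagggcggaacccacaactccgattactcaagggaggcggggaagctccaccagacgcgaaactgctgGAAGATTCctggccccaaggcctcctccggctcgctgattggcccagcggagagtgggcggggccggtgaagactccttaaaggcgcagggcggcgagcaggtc
Hspb1: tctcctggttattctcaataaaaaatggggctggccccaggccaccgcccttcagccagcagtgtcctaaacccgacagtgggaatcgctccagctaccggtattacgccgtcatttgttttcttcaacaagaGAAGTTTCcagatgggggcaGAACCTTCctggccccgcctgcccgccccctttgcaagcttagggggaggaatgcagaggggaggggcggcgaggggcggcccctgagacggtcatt
Dnajb1: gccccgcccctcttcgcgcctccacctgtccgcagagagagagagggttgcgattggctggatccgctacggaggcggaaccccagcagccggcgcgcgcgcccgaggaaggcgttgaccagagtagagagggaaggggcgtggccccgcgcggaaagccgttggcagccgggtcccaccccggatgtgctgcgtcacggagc
Hspe1 and Hspd1 site: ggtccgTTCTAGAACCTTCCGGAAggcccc
Hsph1 site: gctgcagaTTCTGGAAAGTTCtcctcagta

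In the annotation of the same build (GENCODE M21, GRCm38), all 10 members are protein-coding genes. Hspa1a (chr17:34969190-34972156) and Hspa1b (chr17:34956436-34959238) lie next to each other on the minus strand. Hspd1 (chr1:55077835-55088243, minus strand) and Hspe1 (chr1:55088132-55091307, plus strand) overlap at their 5′ ends, away from the 3′ ends at which reads were counted. Hspb1 (chr5:135887919-135889563, plus strand), Hspb8 (chr5:116408491-116422864, minus strand) and Hsph1 (chr5:149614287-149636376, minus strand) share a chromosome. Dnajb1 lies at chr8:83608193-83612653 (plus strand), Dnaja1 at chr4:40722150-40737149 (plus strand) and Hsp90aa1 at chr12:110690605-110702728 (minus strand). Hspa1a and Hspa1b are near-identical copies: 58.8% of the 50-base stretches of the Hspa1a transcript also occur in Hspa1b, and 11.8% of those in its last 1000 bases, where 3′ reads fall. The reverse shares are 62.3% and 23.8%. Reads that match both may have been dropped or split, so the division of counts between these 2 genes is uncertain.

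Of 42012 barcodes, 32698 met the quality limits. Of these, 29583 were alveolar, and their counts were summed per library to totals of 7328396 to 71471208 UMIs. The median depth was 15807 and 13383 UMIs per cell in the 2 libraries of 2 weeks RFP, against 3252 to 6701 in the other 8. Marker levels are unscaled CPM, the UMIs of a gene relative to all UMIs of the summed cells. Sftpc, the defining AT2 transcript, was at 65359 to 162442 CPM, and the immune gene Ptprc, the endothelial gene Pecam1 and the fibroblast gene Col1a1 were at most at 0.546, 3.64 and 0.329 CPM. The summed endothelial markers were at most at 38.6 CPM. The summed immune list was at 10597 to 57821 CPM, with 57821 and 47205 CPM in Confetti, and it holds Cd74 and Lyz2, which AT2 cells are known to express as well. The summed airway secretory markers were at 2516 and 2726 CPM in Confetti and at 84.3 to 906 CPM in the other 8 libraries. They moved with each comparison against Confetti, and their part in the results was not tested. No 2 libraries shared more than 12 barcode sequences among filtered cells. No label says that replicates are separate cultures or litters, so p-values measure only the spread between these libraries. In such sums, a different mix of cell states and a different amount of RNA per cell cannot be told apart.

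Of the 10 libraries, 2 stood apart for most members. They were replicate 1 of 2 weeks RFP and replicate 1 of 2 weeks YFP, which carry the same replicate number but opposite colours. Both lay above all 8 other libraries for 8 of the 10 members, Hspb8 and Hspd1 being the exceptions, where 1.93% of all genes tested did so, and 1.72% of genes as abundant as members (a median level at least that of the lowest member). These libraries were singled out by the members' own levels, so the count is a description. The immediate-early genes, a list of 19 genes such as Fos, Jun and Egr1 that respond to acute stimulation, moved with them. Their summed level was 9154 and 9448 CPM in these 2 libraries and 3568 to 5854 CPM in the other 8. The part of what drives these genes in the chaperone levels was not tested.

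**Figure D1:**
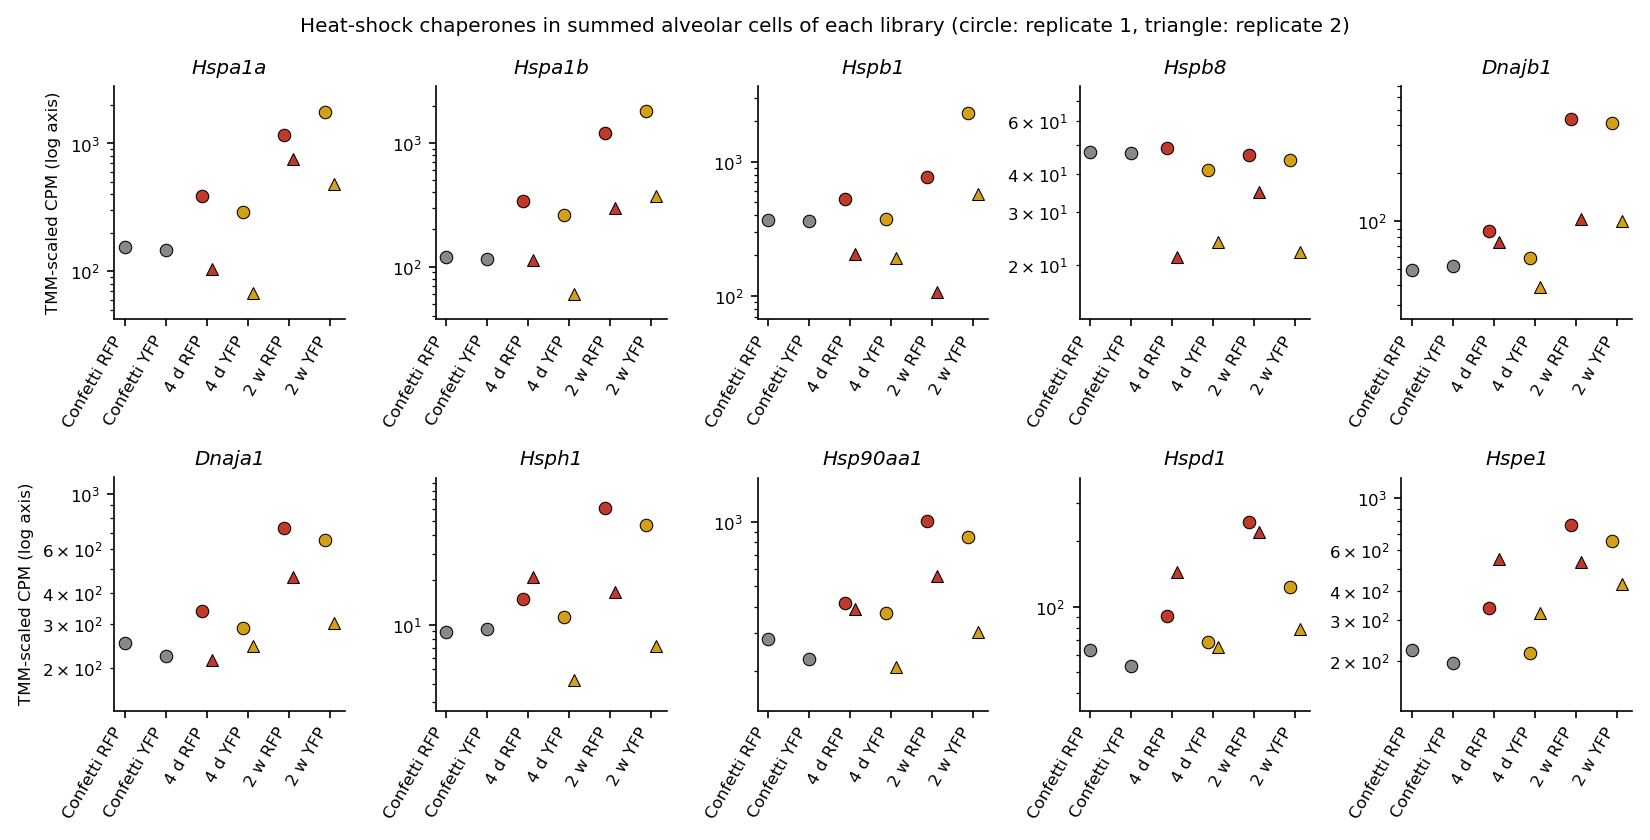
TMM-scaled CPM (counts relative to the scaled library total, log axis) of each member in the summed alveolar cells of each library, by group. Circles are replicate 1, triangles replicate 2 and no error bar is drawn because each point is 1 library. For Hspa1a, the 2 circles of 2 weeks lie at 1169 and 1761 CPM and the Confetti points at 154 and 147 CPM, whereas the Hspb8 points of all libraries lie between 21.2 and 48.9 CPM.

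Replicates of the mosaic groups differed far more for several members than for most genes. The pooled SD of log2 levels between replicates was 1.42 for Hspa1b, 1.36 for Hspb1, 1.22 for Hspa1a, 1.20 for Hsph1 and 1.05 for Dnajb1, against a median of 0.29 over all genes tested. These values lie at the percentiles 99.4, 99.3, 98.8, 98.7 and 98.2 of all genes tested. Hspd1, with 0.33 (percentile 59.5), varied about as much between replicates as a typical gene.

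Counts of members are given for 8 comparisons with the quasi-likelihood test of edgeR, adjusted over 13776 genes, and are read against the share of all genes that passed the same rule. In 2 weeks RFP against Confetti, 1 member (Hspd1) passed an adjusted p of 0.05, where 5.32% of all genes did. At an unadjusted p under 0.05 there were 8 members against 31.1% of genes, and with DESeq2 6 members against 16% of genes. In 2 weeks YFP against Confetti, 0 members passed (0.0218% of genes), with 6 at an unadjusted p (5.62% of genes) and 2 by DESeq2 (0.854% of genes). The median log2 fold change of the members was 1.81 and 1.48 in these 2 comparisons, beside 0.03 and 0.01 over all genes. Without the 2 libraries that stood apart, an alternative chosen after seeing the data, these medians were 1.06 and 0.54. With each library left out in turn they ranged from 1.06 to 2.00 and from 0.57 to 2.04, lowest without replicate 1 of the 2 weeks group. Both use the same Confetti libraries, so they are not independent of each other.

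In 4 days RFP against Confetti, 0 members passed (0% of genes), 2 did so unadjusted (8.82% of genes) and 0 by DESeq2 (1.94% of genes), with a member median of 0.69 (0.25 without replicate 1 of 4 days RFP and at most 0.79 with another library left out). In 4 days YFP against Confetti, 0 members passed (0.029% of genes), 0 unadjusted (1.81% of genes) and 0 by DESeq2 (0.0871% of genes), with a median of 0.19 (-0.66 without replicate 1 of 4 days YFP). Between 2 weeks and 4 days, the YFP libraries gave 0 members (0% of genes), 5 unadjusted (1.66% of genes) and 0 by DESeq2 (0.133% of genes), with a median of 1.43. The RFP libraries gave 0 members (0% of genes), 2 unadjusted (11.1% of genes) and 0 by DESeq2 (0.902% of genes), with a median of 1.04. Without the 2 libraries that stood apart, the medians of YFP and RFP between times were 0.44 and 0.37. With each library left out in turn they were 0.46 to 2.08 for YFP, lowest without replicate 1 of 2 weeks and highest without replicate 1 of 4 days, and 0.37 to 1.33 for RFP, lowest without replicate 1 of 2 weeks.

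RFP was then compared with YFP within the mosaic line. At 4 days, RFP against YFP gave 0 members (0% of genes), 1 unadjusted (5.75% of genes) and 0 by DESeq2 (0.856% of genes), with a median of 0.48. This median was 0.044 without replicate 2 and 0.95 without replicate 1 of 4 days YFP. The same comparison at 2 weeks gave 0 members (0% of genes), 1 unadjusted (16.3% of genes) and 1 by DESeq2 (3.82% of genes), with a median of 0.27. This median was 0.61 without the 2 libraries that stood apart, and -0.33 to 0.98 with each library left out in turn, lowest without replicate 1 of 2 weeks RFP and highest without replicate 1 of 2 weeks YFP. It was 0.092 with cells thinned to 2000 UMIs. Fold changes were above 0 for 10 of 10 members at 4 days (49.3% of all genes) and for 7 of 10 at 2 weeks (50.5% of all genes). Leaving out 1 library turned the sign of 5 of the 10 at 4 days (Hspa1a, Hspa1b, Hspb1, Hspb8 and Dnaja1), and of 8 of the 10 at 2 weeks, all but Hspb1 and Hspd1. The difference between the colour effects at 2 weeks and at 4 days passed for no member (adjusted p = 1.00 for each), and for 0 of all genes, with 208 genes at an unadjusted p under 0.05.

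**Figure D2:**
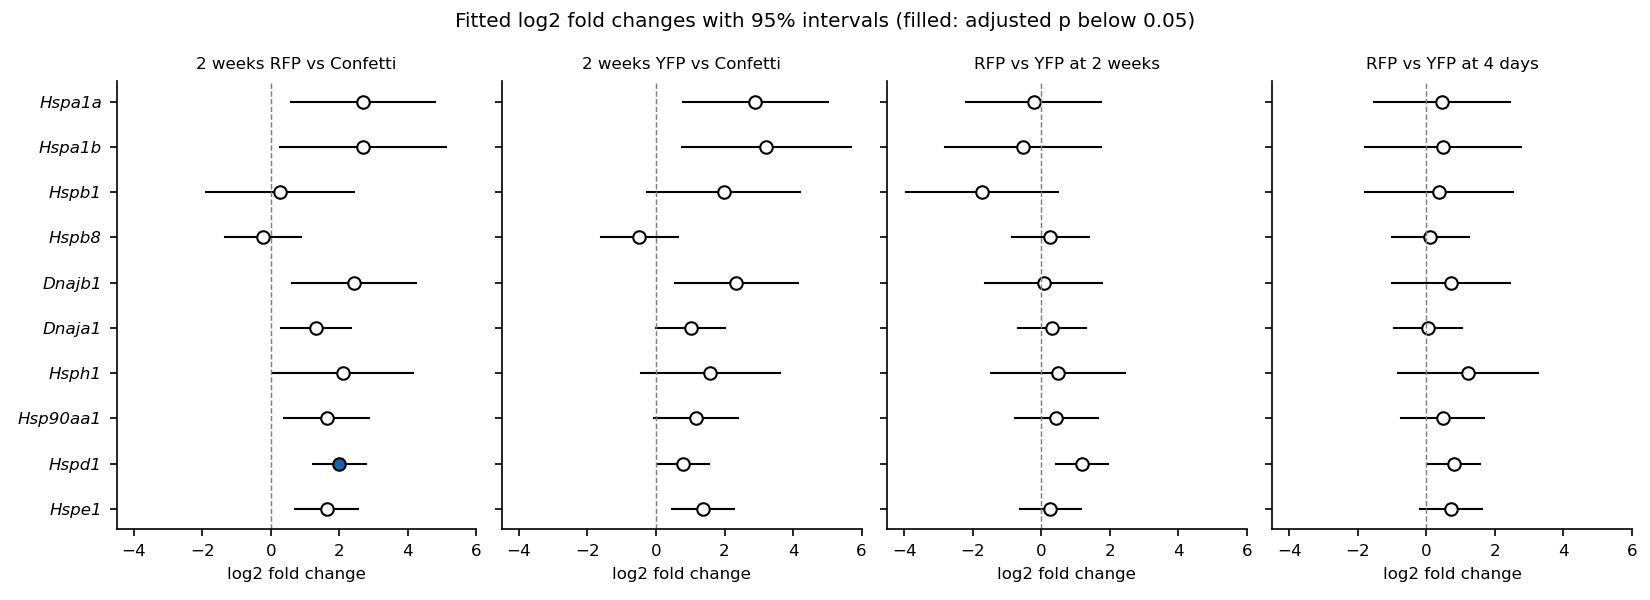
Fitted log2 fold changes (points) with 95% intervals (lines) of the 10 members in 4 comparisons, from edgeR over all 10 libraries. The filled point is the only one with an adjusted p below 0.05, Hspd1 in 2 weeks RFP against Confetti at 2.00, and the intervals of Hspa1a, Hspa1b, Hspb1 and Hsph1 are the widest.

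Hspa1a and Hspa1b encode the stress-inducible HSP70, which is low in unstressed cells. Hspa1a was at 154 and 147 CPM in Confetti RFP and YFP, at 390 and 103 CPM in replicates 1 and 2 of 4 days RFP, and at 290 and 67.5 CPM in those of 4 days YFP. At 2 weeks it was at 1169 and 759 CPM in RFP and at 1761 and 484 CPM in YFP. All 4 libraries of 2 weeks lay above the other 6, while the 4 days libraries lay on both sides of Confetti. Against Confetti the log2 fold change was 2.68 (SE 0.92, adjusted p = 0.0989) in 2 weeks RFP and 2.90 (SE 0.93, adjusted p = 0.765) in 2 weeks YFP. Without replicate 1 of the same group it was 2.31 and 1.71.

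Hspa1b was at 119 and 115 CPM in Confetti, at 339 and 113 CPM in 4 days RFP, and at 262 and 60.2 CPM in 4 days YFP. In 2 weeks RFP it was at 1210 and 298 CPM, and in 2 weeks YFP at 1810 and 374 CPM. All 4 libraries of 2 weeks lay above Confetti, and replicate 2 of 2 weeks RFP lay below replicate 1 of 4 days RFP. Its log2 fold changes from Confetti were 2.69 (SE 1.05, adjusted p = 0.130) and 3.22 (SE 1.08, adjusted p = 0.765), and 1.33 and 1.70 without replicate 1 of the group. Replicate 1 exceeded replicate 2 in all 4 mosaic groups, by log2 values of 1.59 to 2.28 for Hspa1b and 0.62 to 2.10 for Hspa1a. The RFP to YFP difference was small beside this spread, with log2 fold changes at 2 weeks of -0.22 (95% interval -2.20 to 1.76) for Hspa1a and -0.53 (-2.81 to 1.74) for Hspa1b. These intervals ignore the replicate number. Between libraries of the same number, replicates 1 and 2 differed by -0.59 and 0.65 for Hspa1a and by -0.58 and -0.33 for Hspa1b.

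The J-domain proteins Dnajb1 and Dnaja1 deliver clients to HSP70. Dnajb1 was at 49.3 and 52.3 CPM in Confetti, at 87.4 and 73.8 CPM in 4 days RFP, and at 59.0 and 39.0 CPM in 4 days YFP. The 2 weeks libraries were at 440 and 104 CPM in RFP and at 414 and 101 CPM in YFP, so that libraries of the same number were nearly equal in both colours. All 4 libraries of 2 weeks lay above the other 6. The log2 fold changes from Confetti were 2.42 (SE 0.79, adjusted p = 0.0883) in RFP and 2.34 (SE 0.78, adjusted p = 0.765) in YFP, and 1.01 and 1.02 without replicate 1 of the group.

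Dnaja1 had a smaller range. It was at 252 and 224 CPM in Confetti, at 340 and 216 CPM in 4 days RFP, and at 290 and 246 CPM in 4 days YFP. At 2 weeks it was at 728 and 463 CPM in RFP and at 654 and 303 CPM in YFP, where replicate 2 of YFP fell within the range of the 4 days libraries. The log2 fold changes from Confetti were 1.33 (SE 0.44, adjusted p = 0.0936) in RFP and 1.01 (SE 0.44, adjusted p = 0.765) in YFP, and 0.94 and 0.38 without replicate 1 of the group.

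Hsph1, an HSP110 that acts as nucleotide exchange factor of HSP70, rested on few counts, with 45 to 4731 UMIs per library. It was at 8.99 and 9.35 CPM in Confetti, at 14.9 and 20.9 CPM in 4 days RFP, and at 11.3 and 4.21 CPM in 4 days YFP. In 2 weeks RFP it was at 61.4 and 16.7 CPM, and in 2 weeks YFP at 46.8 and 7.23 CPM. Replicate 2 of 2 weeks YFP lay below both Confetti libraries. The fold change of 1.59 in 2 weeks YFP against Confetti (SE 0.88, adjusted p = 0.765) was -0.32 without replicate 1 of that group, whereas that of 2 weeks RFP (2.09, SE 0.89, adjusted p = 0.155) was 0.85 without its replicate 1.

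Hsp90aa1 encodes the inducible cytosolic HSP90. It was at 284 and 227 CPM in Confetti, at 418 and 391 CPM in 4 days RFP, and at 372 and 209 CPM in 4 days YFP. The 2 weeks libraries were at 1008 and 557 CPM in RFP and at 844 and 303 CPM in YFP. RFP exceeded YFP in each pair of the same number, by log2 values of 0.17 and 0.90 at 4 days and 0.26 and 0.88 at 2 weeks. The wildtype Confetti libraries differed by 0.32 in the same direction, and the fitted difference at 2 weeks was 0.45 (SE 0.53, adjusted p = 0.690). Against Confetti the log2 fold change was 1.63 in 2 weeks RFP (SE 0.54, adjusted p = 0.0932) and 1.18 in 2 weeks YFP (SE 0.53, adjusted p = 0.765), and 1.11 and 0.28 without replicate 1 of the group.

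The small heat-shock proteins Hspb1 and Hspb8 hold unfolded clients without using ATP. Hspb1 was at 367 and 360 CPM in Confetti, at 527 and 205 CPM in 4 days RFP, and at 376 and 190 CPM in 4 days YFP. At 2 weeks it was at 765 and 107 CPM in RFP and at 2291 and 570 CPM in YFP, so that replicate 2 of 2 weeks RFP was the lowest of all libraries and replicate 1 of 2 weeks YFP the highest. Of the cytosolic members, Hspb1 was the one with lower levels in RFP than in YFP in both pairs of 2 weeks by more than 1 on the log2 scale, at -1.58 and -2.41. At 4 days the same pairs stood at 0.49 and 0.11. The fitted colour difference at 2 weeks was -1.71 (SE 0.97, 95% interval -3.93 to 0.50, adjusted p = 0.389), and the 2 groups overlapped. Its sign held with each library left out in turn, but its size did not, and the replicates of each group lay far apart. The change of this difference from 4 days to 2 weeks was -2.09 (SE 1.34, adjusted p = 1.00).

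Against Confetti, Hspb1 stood at a log2 fold change of 0.26 in 2 weeks RFP (SE 0.94, adjusted p = 0.866), which was 1.04 without replicate 2 and -1.78 without replicate 1. In 2 weeks YFP it stood at 1.98 (SE 0.97, adjusted p = 0.765), and at 0.68 without replicate 1. Hspb8, the partner of the co-chaperone Bag3 in selective autophagy, had the smallest range over libraries, at 2.30-fold. It was at 47.4 and 46.8 CPM in Confetti, at 48.9 and 21.2 CPM in 4 days RFP, and at 41.4 and 23.8 CPM in 4 days YFP. In 2 weeks RFP it was at 46.3 and 34.9 CPM, and in 2 weeks YFP at 44.6 and 22.2 CPM. Its replicate 2 libraries were the lowest 4 of 10, and it stood below Confetti at log2 fold changes of -0.21 (SE 0.48, adjusted p = 0.785) in 2 weeks RFP and -0.49 (SE 0.49, adjusted p = 0.805) in 2 weeks YFP. Without replicate 1 of the group these were -0.45 and -1.06.

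Hspd1 (HSP60) and Hspe1 (HSP10) form the chaperonin of the mitochondrial matrix and are transcribed in opposite directions from 1 promoter region. Hspd1 was at 63.6 and 53.4 CPM in Confetti, at 90.6 and 144 CPM in 4 days RFP, and at 68.8 and 65.4 CPM in 4 days YFP. The 2 weeks libraries were at 245 and 220 CPM in RFP and at 124 and 78.7 CPM in YFP. The 2 libraries of 2 weeks RFP were the highest of all 10, and the libraries of every colour pair were ordered the same way, with RFP above YFP. With every cell thinned to 2000 UMIs, so that deep cells counted no more than others, Hspd1 was at 184 and 151 CPM in 2 weeks RFP and at 155 and 80.7 CPM in 2 weeks YFP, and the 2 groups overlapped. Hspd1 rose in 2 weeks RFP against Confetti by a log2 value of 2.00 (SE 0.34, 95% interval 1.22 to 2.77, adjusted p = 0.0376), from a mean of 58.5 CPM ± 7.20 to 232.6 CPM ± 17.3 (SD, n = 2 libraries each). The 2 Confetti libraries are the 2 colours of what the methods count as 1 Confetti sample and may share lungs, so their SD is no spread between replicates.

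The size of this rise did not rest on replicate 1 (1.90 without it, adjusted p = 0.0604, and 1.89 without both libraries that stood apart, adjusted p = 0.104), but its call did not hold under all settings, with adjusted p from 8.27e-07 to 0.180. With cells thinned in this way the log2 fold change was 1.25 (SE 0.36, adjusted p = 0.0715). The depth of the 2 weeks RFP cells and the summed level of 7 mesenchymal marker genes, 30.9 and 41.8 CPM against 0.370 to 6.49 CPM in the other 8 libraries, moved with Hspd1. Of these genes, Col1a1 and Pdgfra were at most at 0.329 and 0.120 CPM, so others of the list made up the sum. One of the others, Bgn, was among the leading genes of an alveolar cluster led by Meg3 and Dlk1 at resolution 1.5. Their part was not tested. Against 2 weeks YFP, Hspd1 stood at 1.20 (SE 0.33, 95% interval 0.44 to 1.95, unadjusted p = 0.00627, adjusted p = 0.202) with no overlap between the groups, as for 53.3% of all genes tested. With thinned cells this was 0.50 (SE 0.35, adjusted p = 0.532) with overlap. At 4 days RFP stood above YFP by 0.80 (SE 0.33, adjusted p = 0.834), again without overlap, as for 5 of the 10 members and 31.9% of all genes tested. That value was 0.38 (SE 0.36) with thinned cells, and 0.43 without replicate 2 and 1.10 without replicate 1 of 4 days RFP. The colour difference by pair was 0.40 and 1.14 at 4 days, 0.98 and 1.49 at 2 weeks, and 0.25 in Confetti, where both colours are wildtype. With thinned cells it was 0.15 and 0.58, 0.25 and 0.90, and 0.20.

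Hspe1 was at 224 and 197 CPM in Confetti, at 339 and 548 CPM in 4 days RFP, and at 217 and 323 CPM in 4 days YFP. At 2 weeks it was at 767 and 533 CPM in RFP and at 655 and 427 CPM in YFP. Unlike the HSP70 pair, its replicate 2 was the higher one at 4 days in both colours. Its log2 fold change from Confetti was 1.63 in 2 weeks RFP (SE 0.40, adjusted p = 0.0516), 1.37 in 2 weeks YFP (SE 0.40, adjusted p = 0.765) and 1.08 in 4 days RFP (SE 0.39, adjusted p = 0.542). Without replicate 1 of the group the 2 weeks values were 1.32 and 1.05, and with thinned cells 1.04 and 1.43. RFP and YFP stood apart at 2 weeks by 0.26 (SE 0.39, adjusted p = 0.756), a value that turned to -0.39 (adjusted p = 0.654) with thinned cells.

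Over the 10 libraries Pearson's r of log2 levels lay between 0.74 and 0.96 for every pair of Hspa1a, Hspa1b, Dnajb1, Dnaja1, Hsph1 and Hsp90aa1. It was 0.96 between Hspa1a and Hspa1b, 0.94 between Hspa1b and Dnajb1 and 0.95 between Hsph1 and Hsp90aa1. Hspd1 correlated with Hspe1 (0.88) and Hsp90aa1 (0.84) but not with Hspb1 (0.00) or Hspb8 (-0.02). These values describe 10 libraries that share groups and replicate numbers, and 2 libraries set much of the range. Among all other genes tested, the patterns most like Hsp90aa1 were those of Junb (r = 0.98), Phlda1 and Prkab1. Those most like Hspd1 were Hbegf (0.99), Areg (0.98) and Stip1 (0.98), the first 2 being ligands of the EGF receptor and the third a co-chaperone that links HSP70 to HSP90. Hsph1 was most like Egr1 (0.94), Cyr61 and Egr2, and Dnajb1 most like Zc3hc1 (0.94), Egr1 and Zswim3. Hspa1a was most like Serpinh1 (0.92), a collagen chaperone and heat-shock gene, Junb and Cfl2, and Hspa1b most like Pecam1 (0.91), Zc3hc1 and Junb, although Pecam1 was nearly absent from the alveolar sums. For the remaining members the nearest genes were Mars2 (0.97), Rhob and Arf2 for Hspb1, Sp140 (0.98), Bmt2 and Arid4b for Hspb8, Gm29107 (0.94), Junb and Serpinh1 for Dnaja1, and Rgs16 (0.98), Noct and Unc5b for Hspe1.

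Other genes of protein folding were taken from 4 lists. Of 40 other chaperones and co-chaperones tested, which are mostly cytosolic but include Serpinh1 and Hspa13 of the endoplasmic reticulum, 7 rose in 2 weeks RFP against Confetti and 0 fell, with a list median of 0.66 beside 0.03 over all genes. Over all genes 5.32% passed, 468 higher and 265 lower. At an unadjusted p under 0.05 there were 19 of the 40 (31.1% of all genes), and by DESeq2 17 (16% of all genes). The 7 were Cacybp (1.39, adjusted p = 0.0376), an HSP90 partner, Hsp90ab1 (1.88, adjusted p = 0.0417), the constitutive HSP90, and 5 subunits of the chaperonin CCT, which folds actin and tubulin. Of the latter, Cct2 stood at 1.89, Cct4 at 1.72 and Cct8 at 1.69 (adjusted p from 0.0417 to 0.0425). Hspa8, the constitutive HSP70, stood at 1.38 (adjusted p = 0.0623) and Bag3, a classical HSF1 target, at 0.35 (adjusted p = 0.686). Of 17 chaperones and stress genes of the endoplasmic reticulum, 1 rose (Sdf2l1, 1.58, adjusted p = 0.0376), and Hspa5 (BiP) stood at 1.06 (adjusted p = 0.0522). In this list 8 had an unadjusted p under 0.05 and 8 passed by DESeq2, and 1 of 17 in edgeR is near the share over all genes. Of 12 other mitochondrial chaperones and proteases 0 passed in edgeR, with 2 at an unadjusted p under 0.05 and 1 by DESeq2, and Hspa9 stood at 0.86 (adjusted p = 0.269). Of 5 heat-shock factors and their regulators 0 passed, with 2 at an unadjusted p and 0 by DESeq2, and Hsf1, whose protein is controlled after translation, stood at -0.33 (adjusted p = 0.386). Of 19 immediate-early genes 1 rose, the growth inhibitor Btg2 (1.49, adjusted p = 0.0417), with a list median of 1.15. Here 8 had an unadjusted p under 0.05 and 7 passed by DESeq2, and 1 of 19 in edgeR is again near the share over all genes. In the other 7 comparisons 0 genes of these 5 lists passed in edgeR (0% to 0.029% of all genes), with 0 to 15 per list at an unadjusted p under 0.05 (1.66% to 16.3% of all genes) and 0 to 4 by DESeq2 (0.0871% to 3.82% of all genes). The count of 15 was that of the 40 other chaperones and co-chaperones in RFP against YFP at 2 weeks (16.3% of all genes), with 4 by DESeq2, and in RFP between times (11.1% of all genes), with 2 by DESeq2. The number of all genes called in 2 weeks RFP against Confetti, from which the 9 calls in these lists come, was 733 in all 10 libraries and 1 to 194 when a library was left out.

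Shares of single cells with each member were compared at equal depth. Each alveolar cell was thinned to 2000 UMIs so that depth did not set the share of cells in which a gene was detected, and the 0 to 6 shallower cells of each library were left out. Hspa1a was then detected in 70.3% and 51.1% of cells in the 2 libraries of 2 weeks RFP and in 76.9% and 31.3% in those of 2 weeks YFP, against 9.03% to 28.1% in the 6 other libraries. Exact 95% binomial intervals, which cover counting error only, were 68.9% to 71.7% for the first and 28.4% to 34.2% for the last of these 4 libraries. Without thinning the shares were 90.7%, 72.7%, 86.9% and 49.7%, against 18.1% to 40.7%. In discarded immune cells, thinned alike, Hspa1a was detected in a median of 11.1% of cells per library (3.76% to 37.6%), with median depths of 3950 to 12432.5 UMIs before thinning. Hspa1a is inducible in immune cells too, so this share is no pure background. Hspb1, which immune cells express little (median 4.88% of cells), was detected in 42.1% to 42.4% of cells in Confetti, 44.0% and 13.4% in 2 weeks RFP, and 69.7% and 40.9% in 2 weeks YFP. Hspb8 was detected in 3.57% to 9.13% of cells, where immune cells had a median of 0.372%. Hspd1 was detected in 27.8% and 23.7% of cells in 2 weeks RFP, 23.2% and 11.6% in 2 weeks YFP, 17.3% and 23.1% in 4 days RFP, and 13.3% to 15.7% in Confetti and 4 days YFP, against a median of 21.9% in immune cells. At this depth the share of Hspd1 in 2 weeks RFP replicate 2 (95% interval 22.1% to 25.3%) was close to that of 2 weeks YFP replicate 1 (21.9% to 24.5%). That of 2 weeks RFP replicate 1 (26.4% to 29.2%) lay above both.

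The number of members detected together in a thinned cell had a median of 5 in replicate 1 of 2 weeks RFP and in that of 2 weeks YFP, 3 in replicate 2 of 2 weeks RFP and 2 in the other 7 libraries. At least 7 members were detected in 18.7% and 18.1% of cells of replicate 1 of 2 weeks RFP and YFP, against 0.0341% to 2.72% in the other 8. No member was detected in 0.865% and 0.379% of their cells, against 4.51% to 12.1%. The cells with at least 7 members and the rest had median mitochondrial shares of 2.30% and 2.48% in 2 weeks RFP replicate 1, and of 2.54% and 2.63% in 2 weeks YFP replicate 1.

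**Figure D3:**
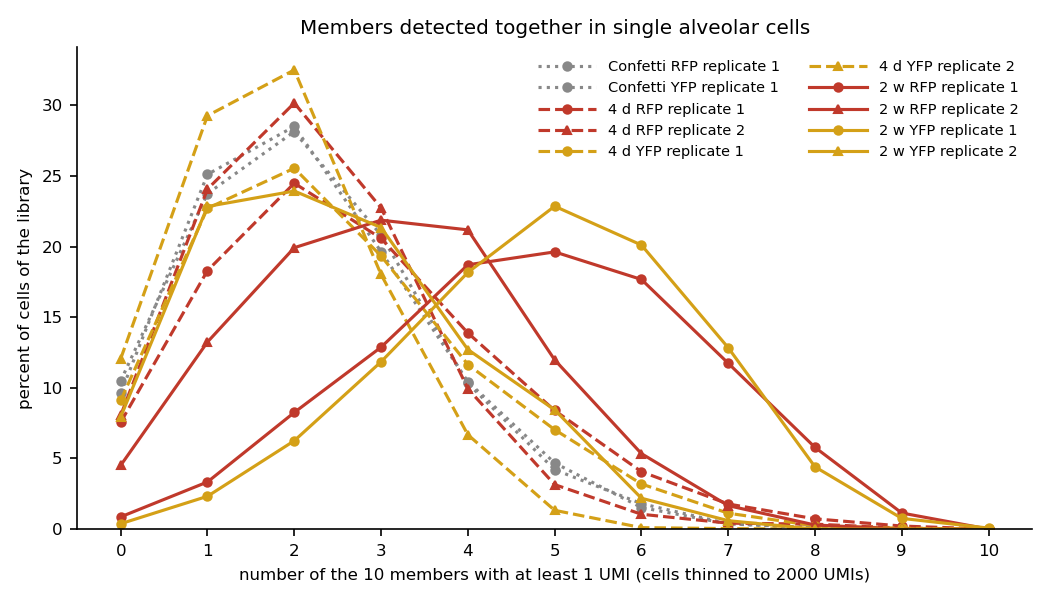
Share of the alveolar cells of each library (percent) by the number of members with at least 1 UMI after thinning each cell to 2000 UMIs. Lines join the values of 1 library, solid for 2 weeks, dashed for 4 days and dotted for Confetti. The curves of 2 weeks RFP and YFP replicate 1 are shifted right, with a median of 5 members, and those of the other libraries peak at 2 or 3.

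Within libraries, thinned cells with Hspa1a tended to have Hspb1 and Hspa1b as well. Pearson's r over cells is a description only, since cells of a library share their source and depth, and sparse counts lower it. The correlation between Hspa1a and Hspa1b had a median of 0.51 over the 10 libraries (0.23 to 0.62), which reads that match both copies can raise. It was 0.24 between Hspa1a and Hspb1 and 0.19 between Hspa1a and Dnajb1. Between Hspd1 and Hspe1 it was 0.15, and between Hspa1a and Hspd1 it was -0.00289.

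The 2 libraries that stood apart in alveolar cells also stood apart in cell types that the sort should have removed. Cells were named from marker genes by their cluster, and levels are unscaled CPM. In immune-like cells (44 to 722 cells in each of 10 libraries), replicate 1 of 2 weeks RFP and YFP lay above all 8 other libraries for 7 of 10 members (2.59% of all genes tested and 2.15% of those as abundant as members). Hspa1a was at 470 and 513 unscaled CPM there, against 37.8 to 176 in the others, and Hsp90aa1 at 615 and 447, against 163 to 421. In endothelial-like cells (26 to 88 cells in each of 6 libraries), which the Sftpc driver should not label, they lay above the 4 others for all 10 members (6.46% and 8.31%). Hspa1a was at 2001 and 2656 there, against 752 to 896, and Hspd1 at 166 and 218, against 104 to 134. Few cells per library lie behind these levels. For Hspa1a the endothelial-like levels were above those of the alveolar sums of the same libraries on the same scale, 1260 and 1771, and the part of free RNA was not tested.

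Within alveolar states the picture varied. Among cycling-like cells (cluster led by Ube2c and Birc5, 20 to 779 cells in each of 10 libraries), the 2 libraries lay above all others for 7 of 10 members (1.52% of all genes tested and 1.21% of those as abundant as members), with Hspa1a at 1301 and 1133 unscaled CPM against 23.8 to 444. In the cluster led by Atf3 and Fosb (231 to 932 cells in each of 6 libraries), they did so for 9 of 10 members (7.28% and 8.87%), with Dnajb1 at 377 and 417 against 124 to 162. That cluster was named AT2, with marker scores of 0.0420 for AT2 and 0.244 for damage-associated transient progenitors. Both clusters are parts of the alveolar sums by which the 2 libraries were singled out, so these counts are a description. Among AT2 cells led by Scgb1a1 and Chia1 the 2 libraries parted, with Hspb1 lowest of 9 libraries in replicate 1 of 2 weeks RFP (155 unscaled CPM, from 24 cells) and highest in that of 2 weeks YFP (1822). Hspd1 was again different. In cycling cells it was at 351 and 434 unscaled CPM in 2 weeks RFP, at 169 and 131 in 2 weeks YFP, at 155 and 144 in 4 days RFP and at 73.2 to 94.4 in 4 days YFP and Confetti. RFP thus lay above YFP within cycling cells at both time points, in cells that were not thinned, and replicate 2 was the higher of the 2 weeks RFP libraries. In the cluster led by Procr and S100a6, which held markers of damage-associated transient progenitors, Hspd1 was at 337 and 268 in 2 weeks RFP, 306 and 238 in 4 days RFP and 163 in the YFP library of 2 weeks with enough cells. Hspa1a was not highest in replicate 1 there, at 478 against 936 in replicate 2 of 2 weeks RFP. In the primed AT2-like cluster led by Apoc1 and Slpi Hspd1 lay between 55.2 and 91.4 in all 7 libraries with enough cells.

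**Figure D4:**
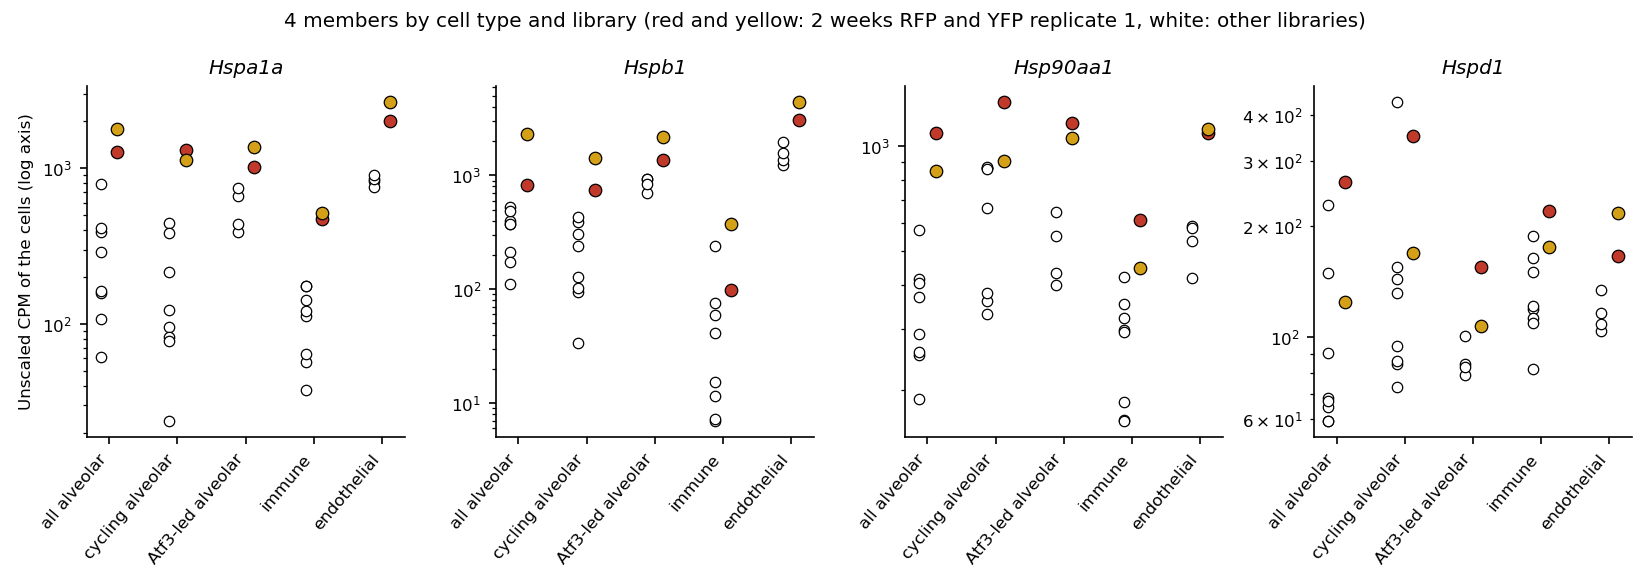
Unscaled CPM (log axis) of 4 members in cells of 5 kinds, with 1 point per library that had at least 20 such cells. Red and yellow points are replicate 1 of 2 weeks RFP and YFP, and white points the other libraries. For Hspa1a the coloured points lie above all white points in every kind of cell, at 470 and 513 against at most 176 in immune cells, whereas for Hspd1 a white point at 434 is the highest in cycling cells.

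When alveolar cells were clustered without the members and without the listed other chaperones, co-chaperones and heat-shock factors, a cluster of 4198 cells still had Hspa1b, Hspb1 and Hspa1a as its leading genes. By its markers it was primed AT2-like, and it held 65.0% of cells of 2 weeks YFP replicate 1, 29.2% of 2 weeks RFP replicate 1 and 0.144% to 5.66% of the other libraries. Within it Hspa1a ranged from 84.0 unscaled CPM in 4 days YFP replicate 2 to 2000 in 2 weeks YFP replicate 1. As 65.4% and 28.2% of its cells came from 2 libraries, a cell state and a condition of these libraries cannot be told apart.

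Mice of both sexes were pooled in the replicate 1 libraries of the mosaic line, which allowed a comparison within a library. It was chosen after seeing the data. Cells with UMIs of Xist and none of 4 Y-linked genes (Ddx3y, Eif2s3y, Kdm5d and Uty) were called female, and the reverse male. Female cells made up 82.7% and 85.1% of called cells in 4 days RFP and YFP replicate 1 and 35.2% and 25.8% in 2 weeks RFP and YFP replicate 1. Many cells had no call, with 516 of 3804 in Confetti RFP, 1839 of 2935 in 4 days YFP replicate 2 and 2019 of 4224 in 2 weeks YFP replicate 1. Shares and levels by sex therefore describe called cells only, and may not be those of all cells. All called Confetti cells were female, and at most 2 cells of each replicate 2 library were. Sex thus moved with the comparisons against Confetti, and its part there was not tested. In these 4 mixed libraries, male cells had higher levels than female cells for 9 members in 4 days RFP, 10 in 4 days YFP, 10 in 2 weeks RFP and 9 in 2 weeks YFP. In the same order, 53.9%, 49%, 50.9% and 40.1% of all genes tested were higher in male cells, and of those as abundant as members 60.2%, 57.8%, 50.8% and 35.8%. Hspa1a was at 255 and 722 unscaled CPM in female and male cells of 4 days RFP, at 194 and 596 in 4 days YFP, at 839 and 1408 in 2 weeks RFP and at 1018 and 1899 in 2 weeks YFP. Hspb1 was at 797 in female and 2531 in male cells of 2 weeks YFP replicate 1. The ratio of female to male cells was 0.257 to 0.528 for Hspa1b over the 4 libraries and 0.786 to 1.04 for Hspb8. No test was made, because cells of 1 sex in a pool may come from 1 mouse, so sex and mouse cannot be told apart. The replicate 2 libraries, almost wholly male, had Hspa1a at 61.0 to 785 unscaled CPM. In replicate 1 of 2 weeks the female cells alone, at 839 and 1018, lay above both Confetti libraries, which were female, at 157 and 163. Those 2 libraries had been singled out by the members' levels, and this was not tested.

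**Figure D5:**
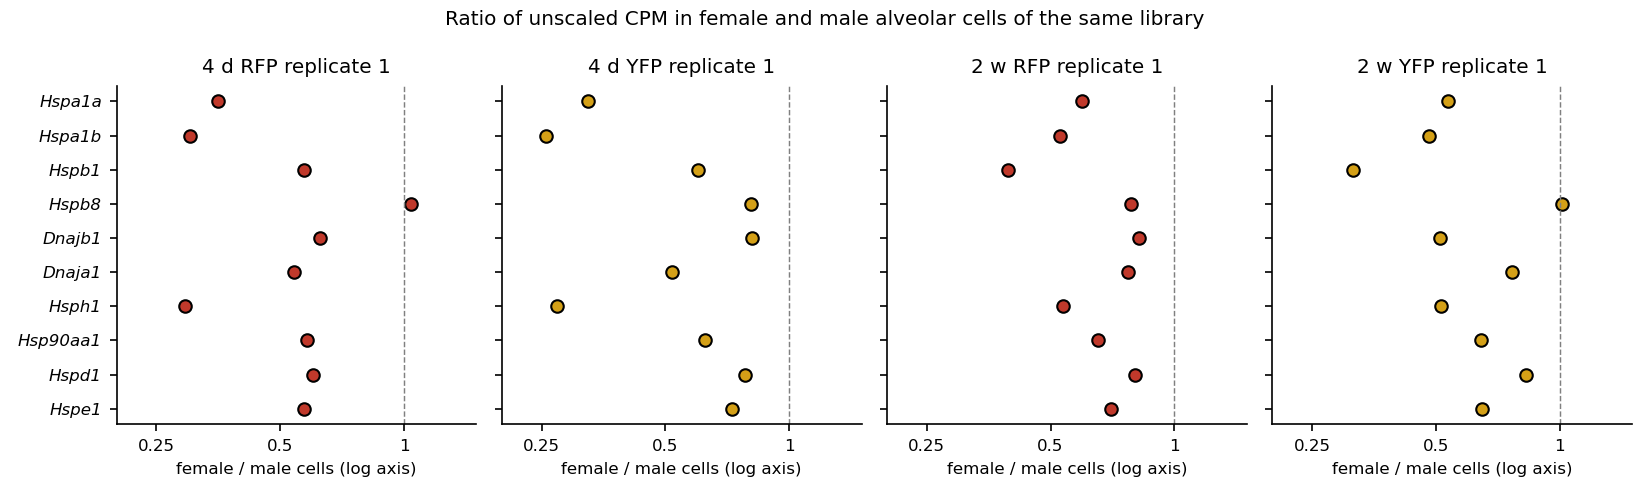
Ratio of unscaled CPM in female and male cells of the same library (log axis) for each member in the 4 mixed libraries. A ratio of 1 (dashed line) means equal levels. Nearly all points lie left of the line, down to 0.257 for Hspa1b in 4 days YFP, while Hspb8 lies between 0.786 and 1.04.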

How the data were processed

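Counts of unique molecular identifiers (UMIs) were deposited per library as 10x matrices, which the authors made against GRCm38. The submitters' notes name Cell Ranger 3.1.0 and the matrix headers 5.0.1. Cells with at least 1000 genes, at most 50000 UMIs and at most 15% mitochondrial UMIs were kept. They were scaled to 10000 counts and clustered with scanpy 1.11.5 and igraph 0.11.9 (5000 variable genes, 30 components, 20 neighbours, resolution 0.8 or 1.5). Clusters named immune, endothelial, mesenchymal or ciliated were discarded and the remaining cells called alveolar. No cluster was named airway secretory, and 2 of the AT2 clusters kept (3900 and 2730 cells) had the airway secretory marker Scgb1a1 as leading gene. Doublets were kept, and removing 940 cells (2.87%), those that Scrublet scored highest when 0.8% doublets per 1000 cells are assumed, was an alternative, as the automatic threshold marked 32 cells (0.0979%).

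Raw counts were summed per library over alveolar cells and fitted with the quasi-likelihood test of edgeR 4.0.16 (R 4.3.3, TMM scaling, low-count filter, 10 libraries in 6 groups, Benjamini-Hochberg adjustment over all genes tested). The level of Confetti was the mean of both Confetti coefficients. CPM are TMM-scaled unless named unscaled. A called gene had an adjusted p below 0.05. Alternatives were DESeq2 1.42.0, RLE size factors, no low-count filter, all cells passing the filters, all barcodes, doublets removed, cells thinned to 2000 UMIs, the replicate number as a block, and leaving out each library. Leaving out both replicate 1 libraries of 2 weeks was added after seeing the data. The fit was tested on simulated data before use.

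The members and gene lists were chosen with earlier results of these data known. All members are named, with at most 5 called genes per list by smallest adjusted p, the 6 genes Hspa8, Hsp90ab1, Hspa5, Hspa9, Bag3 and Hsf1, and the 3 other genes with the highest Pearson's r of log2(CPM + 1) with each member. Types with under 20 cells in a library were left out of levels by type. The mutated gene and its level are not reported here.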

Additional observations from a re-analysis of the deposited data

How the results depend on the processing

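Of 1040 values of the members under an alternative, 925 kept their direction and side of the threshold, 40 passed only there, 8 passed only with the settings of the report and 67 changed sign, 61 of the latter with a log2 fold change under 1 in size. The causes of these changes were not tested. Shares of cells moved with thinning in 100 of 100 cases, and 29 of 30 levels by state stayed within the spread at resolution 1.5. Thinning cells to equal depth moved Hspd1 from 2.00 to 1.25 and Hspe1 from 1.63 to 1.04 for 2 weeks RFP against Confetti. Confetti, with 1 library per colour, has no replicates within a colour.

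DESeq2 called 111 genes for RFP against YFP at 4 days, 465 (1 member) at 2 weeks, 117 for RFP and 18 for YFP between times, and, against Confetti, 262 and 12 for 4 days RFP and YFP and 2200 (6 members) and 104 (2 members) for 2 weeks RFP and YFP. Without a low-count filter these numbers were 504 (1 member), 1380 (2 members), 696 (4 members), 192 (5 members), 822, 135, 3241 (8 members) and 532 (6 members). The number of genes tested without the filter is not stated, so these member counts have no share over all genes beside them. RLE size factors called 1 gene for RFP against YFP at 2 weeks, and removing doublets 1 for RFP between times. Thinned cells gave 1 gene for RFP against YFP at 2 weeks, 4 for 4 days RFP and 6 for 2 weeks YFP against Confetti, and 0 members for 2 weeks RFP. The smallest adjusted p of a member was 0.0715 there (Hspd1, edgeR), and the share of all genes called is not stated. With all cells passing the filters, 0 genes were called for 4 days YFP, 2 weeks RFP (0 members) and 2 weeks YFP against Confetti, and with all barcodes 0, 1 (0 members) and 1. Without both replicate 1 libraries of 2 weeks, a choice made after seeing the data, these were 0, 5 (0 members) and 0.

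Same-numbered libraries of both colours deviated together (correlations of 0.472 at 4 days and 0.626 at 2 weeks, against 0.0223 to 0.295 across times), but only 2 numbers exist and no label says what they share. With a replicate block, 8 of the 13776 genes tested were called for 4 days RFP against Confetti, 7 for 4 days YFP, 3169 for 2 weeks RFP and 11 for 2 weeks YFP. Under the replicate block 7 members passed in 2 weeks RFP against Confetti, namely Hspa1a, Hspa1b, Dnajb1, Dnaja1, Hsp90aa1, Hspd1 and Hspe1, and 1 in 2 weeks YFP, Hspa1b (adjusted p = 0.0186 in edgeR). The block turned Hspa1a to 0.11 for RFP against YFP at 2 weeks and to -0.085 for 4 days YFP against Confetti, and Hspb1 to -0.12 for RFP between times, -0.13 for 4 days RFP and -0.25 for 2 weeks RFP against Confetti.

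Other log2 fold changes that changed sign were as follows. Thinned cells gave -0.39 for Hspe1 in RFP against YFP at 2 weeks. All cells passing the filters gave -0.050 for Hspb8 in YFP between times, -0.029 for Hspb1 in 4 days RFP and 0.080 for Dnajb1 in 4 days YFP against Confetti. All barcodes gave -0.021 for Hspb1 in 4 days RFP, and 0.095 for Dnajb1 and 0.094 for Hsph1 in 4 days YFP against Confetti. Without both replicate 1 libraries, values were 0.63 for Hspa1a in RFP against YFP at 2 weeks, -1.79 for Hspb1, -0.030 for Hspb8 and -0.098 for Hsph1 in RFP between times, -0.55 for Hspb8 and -0.082 for Hsph1 in YFP between times, and, against Confetti, -1.79 for Hspb1 in 2 weeks RFP and -0.35 for Hsph1 in 2 weeks YFP.

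With each library left out in turn, the number of genes called ranged from 0 to 199 for RFP against YFP at 4 days and from 0 to 331 for 4 days RFP against Confetti, both highest without replicate 1 of 4 days RFP. It ranged from 0 to 3 for 4 days YFP, 1 to 194 (0 members) for 2 weeks RFP and 0 to 1 for 2 weeks YFP against Confetti, from 0 to 1 for YFP between times, and was 0 elsewhere. A lone library was assumed to vary like the others. For RFP against YFP at 4 days the ranges were -0.79 to 1.87 (Hspa1a), -0.51 to 1.91 (Hspa1b), -0.46 to 0.95 (Hspb1), -0.61 to 0.59 (Hspb8) and -0.31 to 0.34 (Dnaja1). At 2 weeks they were -0.87 to 0.98 (Hspa1a), -1.89 to 0.99 (Hspa1b), -0.14 to 0.85 (Hspb8), -1.33 to 1.41 (Dnajb1), -0.14 to 0.95 (Dnaja1), -0.74 to 2.41 (Hsph1), -0.11 to 1.35 (Hsp90aa1), -0.041 to 0.58 (Hspe1) and -0.33 to 0.98 (median of members). Between times they were -1.79 to 1.08 (Hspb1), -0.27 to 0.93 (Hspb8) and -0.094 to 1.77 (Hsph1) for RFP, and -0.53 to 0.50 (Hspb8) and -0.060 to 2.71 (Hsph1) for YFP. Against Confetti, 4 days RFP gave -0.54 to 1.38 (Hspa1a), -0.050 to 1.53 (Hspa1b), -0.82 to 0.54 (Hspb1), -1.15 to 0.054 (Hspb8) and -0.13 to 0.52 (Dnaja1). There 4 days YFP gave -1.16 to 0.94 (Hspa1a), -0.96 to 1.15 (Hspa1b), -0.94 to 0.041 (Hspb1), -0.38 to 0.21 (Dnajb1), -1.12 to 0.29 (Hsph1), -0.28 to 0.54 (Hsp90aa1) and -0.66 to 0.27 (median of members). At 2 weeks it gave -1.78 to 1.04 (Hspb1) and 1.84 to 2.12 (Hspd1, not called in any of the 4) for RFP, and -0.32 to 2.35 (Hsph1) for YFP.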
